A study of Homo sapiens with 12 samples.

Results

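The 47 genes described here are mesenchymal markers, collagens and genes of the extracellular matrix, in a human ovarian carcinoma line. The line, IGROV-1, is an established one and carries a stable knockdown of the chemokine receptor CXCR4 in 2 of the groups. The genes were chosen by name, and each was read from the probe set that carries its symbol alone and has the highest mean over all 12 arrays. All 47 were measured among 19775 genes on the Affymetrix Human Genome U133 Plus 2.0 array. The 4 groups have 3 arrays each. shCXCR4 I and shCXCR4 II are individual clones that carry a short hairpin RNA (shRNA) against CXCR4. Mock cells are a pool of clones with a scrambled shRNA, and Parental cells were not transfected. Selection in puromycin (4 µg/ml, 30 days) was applied to both clones and to Mock and not to Parental cells. In comparisons with Mock, knockdown and clonal origin cannot be told apart, and in comparisons with Parental, transfection and selection come in as well. The labels do not say that the 3 arrays of a group come from separate cultures, so the p-values cover only the spread among the arrays, and that spread may be technical.

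The matrix around cells is built from collagens, which form fibrils or basement membrane networks, from elastic fibres with a fibrillin scaffold, and from glycoproteins and proteoglycans that fill and link these structures. Lysyl oxidases cross-link collagen and elastin. Epithelial cells that take on mesenchymal traits often express transcription factors of the ZEB, SNAI and TWIST families, exchange E-cadherin for N-cadherin and produce more matrix, and in ovarian cancer such genes come both from stromal fibroblasts and from the tumour cells. The arrays here hold a cultured line. In bulk RNA, fewer cells of a type and less RNA per cell cannot be told apart.

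CXCR4 was low in both clones. On probe set 217028_at its log2 values were 7.06, 7.10 and 7.11 in shCXCR4 I, 6.39, 6.73 and 6.75 in shCXCR4 II, 8.51, 8.60 and 8.64 in Mock, and 8.42, 8.28 and 8.30 in Parental. The level in shCXCR4 I was 35.6% of that in Mock and the level in shCXCR4 II was 25.7% (limma adjusted p = 6.11e-08 and 4.38e-09). The median log2 value per array lay between 4.25 and 4.39, and the number of arrays limits the precision. Of 8 markers of ovarian carcinoma epithelium, 7 lay above the array median in every group, with MUC16 below it. Their mean log2 level per array was 8.85 to 8.89 in shCXCR4 I, 8.57 to 8.61 in shCXCR4 II, 8.79 to 8.80 in Mock and 8.77 to 8.84 in Parental. Of 6 fibroblast markers, 5 (PDGFRA, PDGFRB, DPT, MEOX2 and PRRX1) lay below the array median on every array. None of the 6 markers passed the test in any comparison, where 43.7% of all genes passed it in at least 1. Their mean level was 3.51 to 3.66, 3.51 to 3.63, 3.50 to 3.56 and 3.46 to 3.60 in the same order of groups. The measured leukocyte, endothelial and smooth muscle markers had mean log2 levels between 3.96 and 4.54 on the 12 arrays, with PECAM1 the brightest at 6.69 in shCXCR4 I, 6.59 in shCXCR4 II, 6.19 in Mock and 6.45 in Parental. In shCXCR4 I against Mock, 2 of 4 leukocyte markers were higher, 2 of 6 endothelial markers higher and 1 lower, 1 of 5 smooth muscle markers higher, and 2 of 8 epithelial markers higher. In shCXCR4 II against Mock, 4 of 8 epithelial markers were lower and 1 of 6 endothelial markers higher. By the same test 9.97% of all genes were higher and 13.6% lower in shCXCR4 I against Mock, and 11% and 15.1% in shCXCR4 II. The part of these markers in the results below was not tested.

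Among the members, 26 lay above the median of their array on all 12 arrays, 17 lay below it on all 12, and 4 (CDH11, FREM2, LOXL1 and BGN) crossed it. Genes below the median are close to the dim end of the array, and differences there are compressed. The 17 include ZEB2, SNAI2, TWIST1, TWIST2, COL3A1, LOX, SPARC, POSTN and LUM. Mesenchymal markers with high signal were also present: VIM, the intermediate filament of mesenchymal cells, averaged 11.93 ± 0.03 in shCXCR4 I, 11.82 ± 0.09 in shCXCR4 II, 11.91 ± 0.03 in Mock and 11.79 ± 0.02 in Parental (SD, n = 3 each) and passed the test in none of the 6 comparisons. S100A4, a calcium-binding protein linked to cell motility, averaged 12.43 ± 0.05, 12.29 ± 0.12, 12.18 ± 0.02 and 12.34 ± 0.03 in these groups. It was higher in shCXCR4 I than in Mock (log2 difference 0.25, limma adjusted p = 0.0142), a call that was lost without shCXCR4 I replicate 3 (0.0608) or with centred arrays (0.0923).

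Against Mock, the knockdown clones had much less FREM2 RNA and more FBN1, VCAN and CALD1 RNA. A gene is counted as called at a limma adjusted p under 0.05 over all 19775 genes, and a difference of 1 on the log2 scale is 2-fold. In shCXCR4 I against Mock 14 of 47 members were called (29.8%), 8 higher and 6 lower, where 23.6% of all genes were called (9.97% higher, 13.6% lower). In shCXCR4 II against Mock 16 of 47 were called (34%), 8 higher and 8 lower, beside 26.1% of all genes (11% higher, 15.1% lower). The median difference over the 47 was 0.08 and 0.09, with 0.02 over all genes in both comparisons. The split depends on the scaling of the arrays: with quantile normalization it was 5 higher and 5 lower in shCXCR4 I and 6 and 7 in shCXCR4 II, and with arrays centred on their median it was 4 and 8, and 4 and 10. At least 2-fold, 2 members were called in each clone, FREM2 and FBN1 in shCXCR4 I (0.764% of all genes) and FREM2 and COL6A1 in shCXCR4 II (0.769%).

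**Figure D1:**
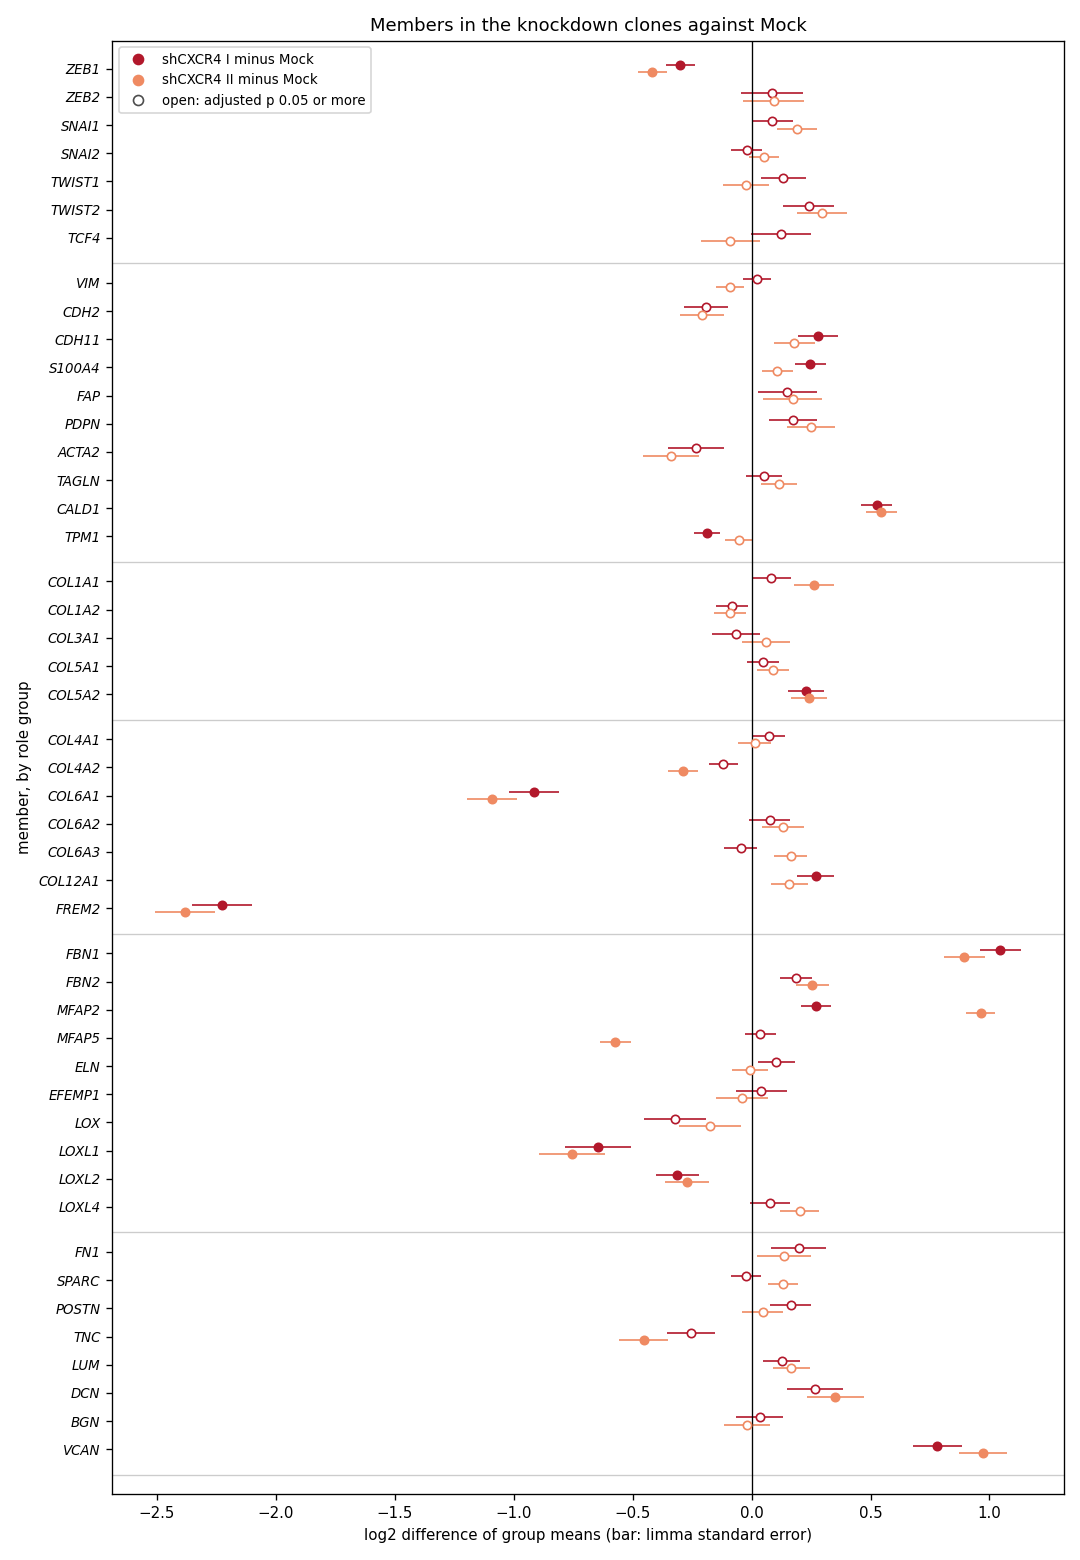
Log2 difference of group means for the 47 members, shCXCR4 I minus Mock in dark red and shCXCR4 II minus Mock in orange, ordered by role from transcription factors at the top to glycoproteins and proteoglycans at the bottom. Bars are limma standard errors and open circles have an adjusted p of 0.05 or more; FREM2 lies near -2.23 and -2.38, and most other members lie within 0.5 of 0.

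Against Parental, most called members were lower, whichever selected group was compared. In shCXCR4 I 12 members were called (25.5%), 2 higher and 10 lower, beside 16.8% of all genes. In shCXCR4 II 15 were called (31.9%), 3 higher and 12 lower, beside 17% of all genes. In Mock 11 were called (23.4%), 2 higher and 9 lower, beside 15% of all genes. Over all genes, 8.25% were higher and 8.56% lower in shCXCR4 I, 7.47% and 9.48% in shCXCR4 II, and 9.78% and 5.23% in Mock. The members' median difference was -0.04, -0.02 and -0.10 in these comparisons, with 0.02, 0.03 and 0.00 over all genes. Centring the arrays changed the Mock split to 3 higher and 6 lower. At least 2-fold, CDH2 and LOXL1 were called in shCXCR4 I (0.723% of all genes) and in shCXCR4 II (0.733%), and FREM2, CDH2 and VCAN in Mock (0.521%). The 3 comparisons share the Parental arrays, and those of the clones with Mock share the Mock arrays, so a shift of a shared group enters each of them.

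**Figure D2:**
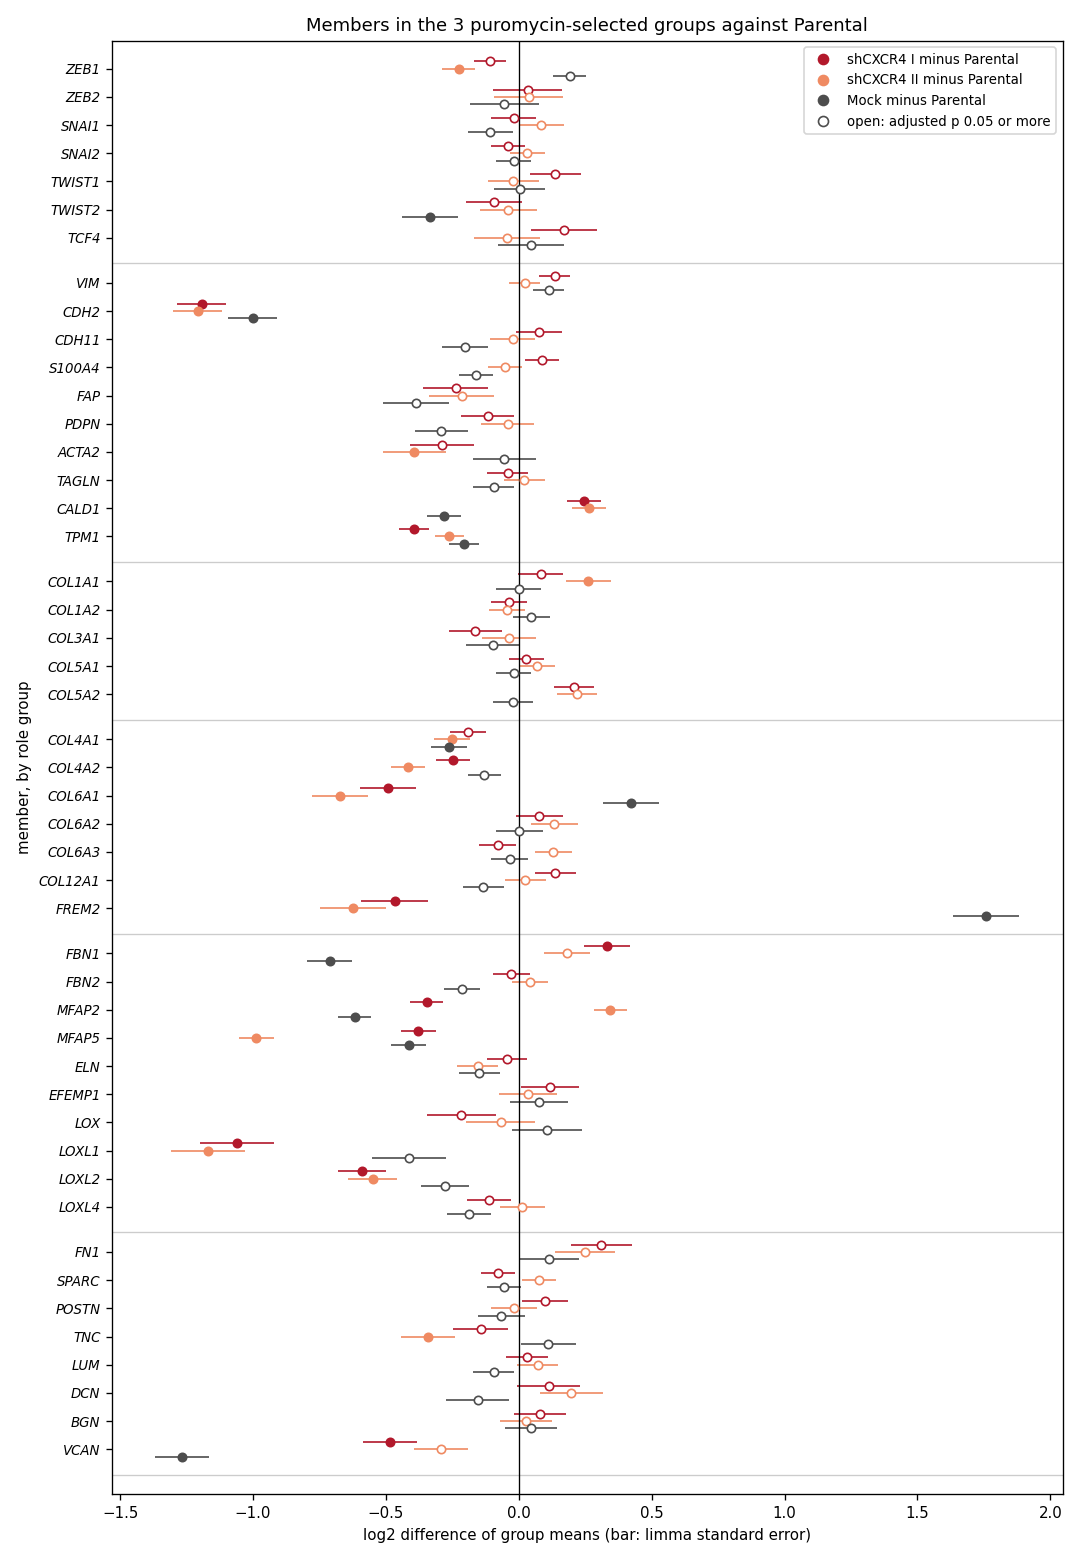
Log2 difference of group means for the 47 members against Parental, with shCXCR4 I in dark red, shCXCR4 II in orange and Mock in grey; bars are limma standard errors and open circles have an adjusted p of 0.05 or more. CDH2 lies at -1.19, -1.21 and -1.00, while FREM2 in Mock lies at 1.76 and in the clones at -0.47 and -0.62.

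Between the clones, MFAP2 and MFAP5 alone were called (4.26% of members, 7.15% of all genes), 1 lower and 1 higher in shCXCR4 I (2.48% and 4.66% of all genes), and no member differed 2-fold (0.197% of all genes). In all, 24 of 47 members (51.1%) were called in at least 1 of the 6 comparisons, as were 43.7% of all genes. Of the 70 calls made on members, 36 were kept under each alternative processing in which the gene was measured and with each array left out in turn, and 34 were lost under at least 1. Of the 23 members not called by their representing probe set, 6 (TCF4, PDPN, COL5A1, LOX, LOXL4 and EFEMP1) had another probe set that was called.

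**Figure D3:**
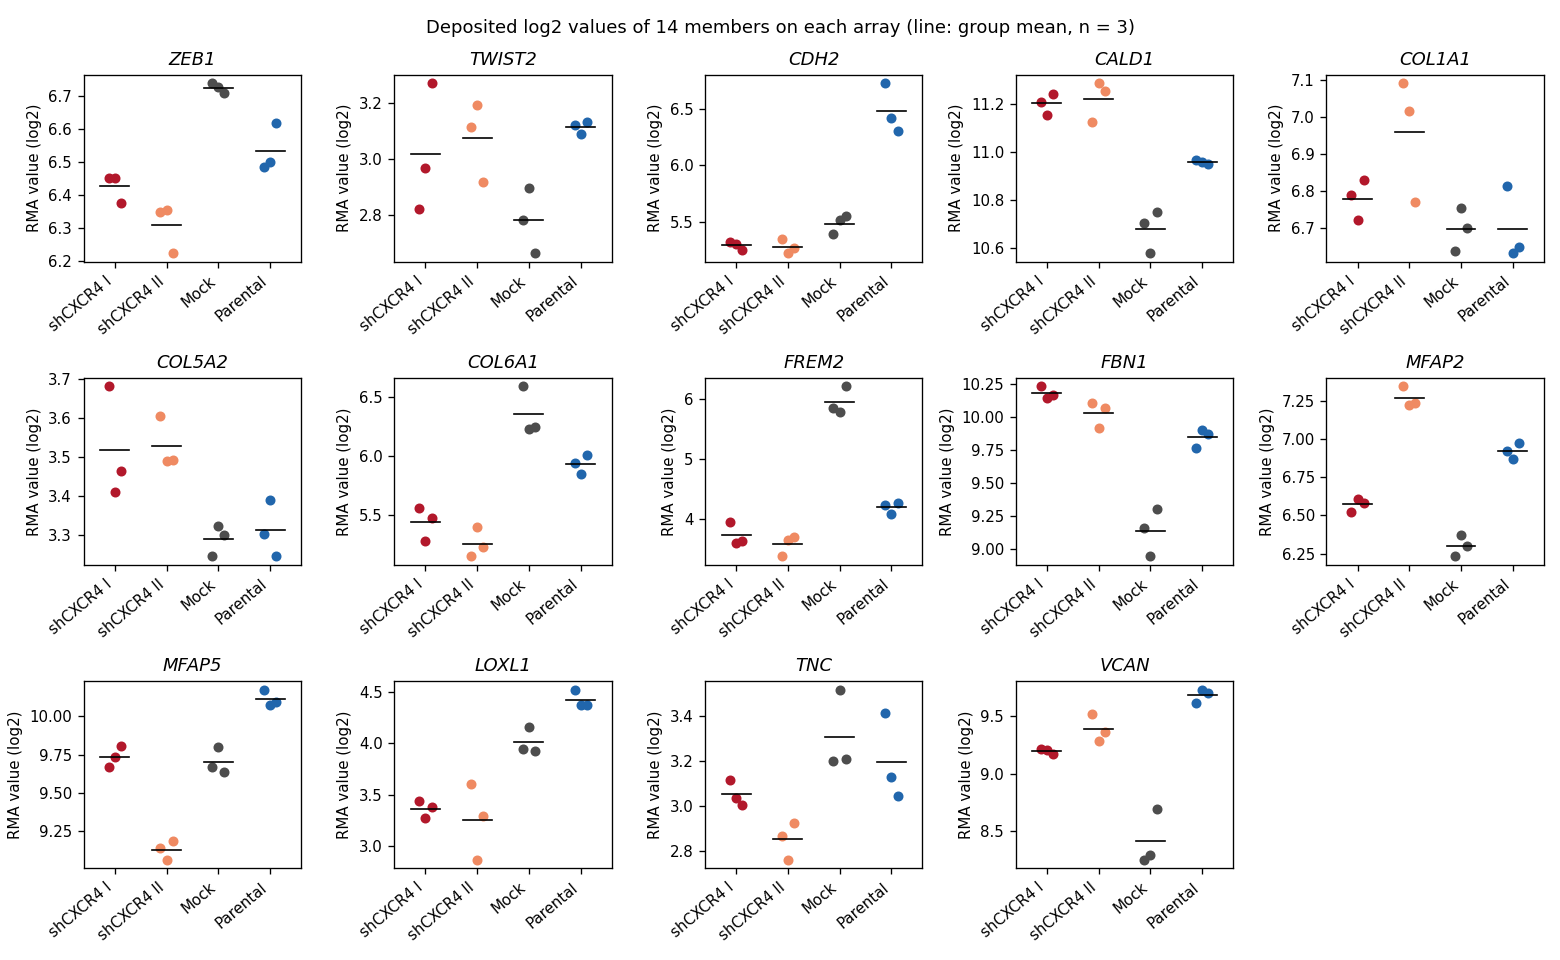
Deposited log2 value of 14 members on each array (points) with the group mean of 3 arrays (line), in the order shCXCR4 I, shCXCR4 II, Mock, Parental; each panel has its own log2 axis. Mock stands above the other groups for FREM2 and below them for FBN1 and VCAN, and Parental stands above the other groups for CDH2 and MFAP5.

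Of the 7 transcription factors, ZEB1 and TWIST2 were called in at least 1 of the 6 comparisons, as were 43.7% of all genes. ZEB2, SNAI1, SNAI2, TWIST1 and TCF4 were not called, with differences of at most 0.21 in size. Of the uncalled factors, all but SNAI1 lay below the array median on all 12 arrays. ZEB1, a zinc-finger repressor of E-cadherin, read 6.45, 6.45 and 6.38 in shCXCR4 I, 6.35, 6.35 and 6.22 in shCXCR4 II, 6.74, 6.73 and 6.71 in Mock, and 6.49, 6.50 and 6.62 in Parental. On this probe set, 212764_at, every array of both clones lay below every control array. The log2 difference from Mock was -0.30 in shCXCR4 I and -0.42 in shCXCR4 II (SE 0.06, limma adjusted p = 0.00322 and 0.00034). From Parental it was -0.11 (limma adjusted p = 0.276) and -0.23 (0.022). The call of shCXCR4 II was lost without its replicate 3 (0.0552) or Parental replicate 3 (0.103). It was also lost with the mean of the ZEB1 probe sets (-0.12, 0.138) and with only the groups compared (0.0753). For Mock minus Parental the difference was 0.19 (0.0521). All 4 ZEB1 probe sets lay below Mock in both clones, with 1 called in shCXCR4 I and 2 in shCXCR4 II. On 210875_s_at both clones lay above Parental (4.36 and 4.42 beside 4.23), which was not called. TWIST2, a basic helix-loop-helix factor, is a dim gene here, at 2.82, 2.97 and 3.27 in shCXCR4 I, 3.12, 3.19 and 2.92 in shCXCR4 II, 2.78, 2.90 and 2.66 in Mock, and 3.12, 3.09 and 3.13 in Parental. Its only call, Mock below Parental (-0.33, SE 0.11, limma adjusted p = 0.0499), was kept in 3 of 12 fits with an array left out, where the adjusted p reached 0.162.

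E-cadherin, CDH1, which ZEB1 is known to repress, did not follow 1 direction. Its mean log2 level was 8.18 in shCXCR4 I, 7.21 in shCXCR4 II, 7.90 in Mock and 8.76 in Parental. It was higher in shCXCR4 I than in Mock by 0.28 and lower in shCXCR4 II than in Mock by 0.70 on the log2 scale (limma adjusted p = 0.00988 and 9.4e-06). ZEB1 was lower in both of these comparisons. Against Parental the log2 difference of CDH1 was -0.59 in shCXCR4 I, -1.56 in shCXCR4 II and -0.86 in Mock (limma adjusted p = 4.1e-05, 3.62e-09 and 1.72e-06). Among 22 measured epithelial genes, 6 were higher and 2 lower in shCXCR4 I against Mock, and 2 higher and 8 lower in shCXCR4 II against Mock, with medians of 0.11 and -0.05. With centred arrays these counts were 5 and 4, and 0 and 10, and with quantile normalization 8 and 2, and 4 and 7. Over all genes, 9.97% were higher and 13.6% lower in shCXCR4 I against Mock, and 11% and 15.1% in shCXCR4 II against Mock. Between the clones 9 of the 22 were higher in shCXCR4 I and 0 were lower, beside 4.66% and 2.48% of all genes.

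Among the 10 cell markers and contractile genes, 6 were called in some comparison, as were 43.7% of all genes. CDH2 encodes N-cadherin, the adhesion molecule of mesenchymal and neural cells. On probe set 203440_at it read 5.32, 5.30 and 5.25 in shCXCR4 I, 5.34, 5.22 and 5.26 in shCXCR4 II, 5.39, 5.51 and 5.55 in Mock, and 6.73, 6.42 and 6.30 in Parental. All 9 arrays of selected cells lay below all 3 Parental arrays, and the selected groups were close to each other. The log2 difference from Parental was -1.19 in shCXCR4 I, -1.21 in shCXCR4 II and -1.00 in Mock (SE 0.09, limma adjusted p = 1.09e-06, 9.99e-07 and 7.58e-06). From Mock the clones differed by -0.19 and -0.21 (limma adjusted p = 0.153 and 0.116). The second CDH2 probe set gave smaller differences from Parental, -0.41, -0.37 and -0.43, all called. E-cadherin and N-cadherin RNA were thus both lower in each selected group than in Parental.

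CALD1 encodes caldesmon, which binds actin and tropomyosin and restrains myosin. Its values were 11.21, 11.16 and 11.24 in shCXCR4 I, 11.13, 11.29 and 11.26 in shCXCR4 II, 10.70, 10.58 and 10.75 in Mock, and 10.97, 10.96 and 10.95 in Parental. The clones lay above Parental and Parental above Mock with no overlap of arrays. Against Mock the log2 difference was 0.53 in shCXCR4 I and 0.55 in shCXCR4 II (SE 0.06, limma adjusted p = 6.39e-05 and 5.72e-05), and 7 and 8 of its 11 probe sets were called higher. Against Parental it was 0.24 and 0.26 (limma adjusted p = 0.0185 and 0.0129), and Mock was lower than Parental by 0.28 (0.00947). The call of shCXCR4 I against Parental was lost without shCXCR4 I replicate 1 (0.0571) or 3 (0.0754) or Parental replicate 2 (0.0576) or 3 (0.0617), and that of shCXCR4 II without its replicate 2 (0.0564).

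No other contractile member was called higher in any comparison. TPM1, a tropomyosin, averaged 10.63 ± 0.01 in shCXCR4 I, 10.76 ± 0.08 in shCXCR4 II, 10.82 ± 0.03 in Mock and 11.02 ± 0.01 in Parental (SD, n = 3 each). It was called lower than Parental in all 3 (-0.39, -0.26 and -0.21; limma adjusted p = 0.000247, 0.00587 and 0.0247) and lower in shCXCR4 I than in Mock (-0.19, 0.0277), but these calls rest on 1 of its 6 probe sets. Without probe sets of the _x_at and _s_at type none of them remained and the difference from Mock turned to 0.16, and the calls of Mock against Parental and of shCXCR4 I against Mock were also lost in 5 fits each with an array left out (up to 0.0755 and 0.0777). ACTA2, smooth muscle actin, was called only in shCXCR4 II against Parental (-0.39, 0.0371), and TAGLN, an actin-binding protein of smooth muscle, in none. The ACTA2 call was lost in 6 fits with an array left out (up to 0.144) and when its probe sets were averaged (-0.05, 0.688). CDH11, a cadherin of mesenchymal cells, was higher in shCXCR4 I than in Mock (0.28, 0.0304), and this was lost without shCXCR4 I replicate 1 (0.131) or Mock replicate 2 (0.0938) or 3 (0.107), under quantile normalization (0.0909) and with centred arrays (0.0865). The mean of the CDH11 probe sets gave 0.08 (0.306). FAP and PDPN, a protease and a membrane glycoprotein of activated fibroblasts, were dim and not called. Of 15 other contractile genes measured, 1 was higher and 4 lower in shCXCR4 I against Mock, and 0 higher and 5 lower in shCXCR4 II, with medians of -0.12 and -0.15. Under quantile normalization these counts were 0 and 3, and 1 and 4. Without it, 9.97% of all genes were higher and 13.6% lower in shCXCR4 I against Mock, and 11% and 15.1% in shCXCR4 II. MYL9, the regulatory myosin light chain, differed from Mock by -0.98 and -0.52, and MYLK, the kinase that phosphorylates it, by -0.77 and -0.54, all past the test.

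Of the 5 fibrillar collagens, which form the banded fibrils of connective tissue, COL1A2, COL3A1 and COL5A1 were not called by their representing probe sets. Their differences were at most 0.16 in size. Over all genes 43.7% were called in at least 1 of the 6 comparisons. COL1A1 read 6.79, 6.72 and 6.83 in shCXCR4 I, 7.09, 7.02 and 6.77 in shCXCR4 II, 6.64, 6.75 and 6.70 in Mock, and 6.81, 6.63 and 6.65 in Parental. It was called higher in shCXCR4 II than in Mock and in Parental, by 0.26 each (SE 0.08, limma adjusted p = 0.0338 and 0.0464). These calls were kept in 7 and 2 of 12 fits with an array left out, where the adjusted p reached 0.128 and 0.165, and the mean of the COL1A1 probe sets turned the sign to -0.11 and -0.13. Its 5 probe sets disagree. Against Parental, 1556499_s_at gave -0.68 in shCXCR4 I and -0.73 in shCXCR4 II. When all single-symbol probe sets were fitted, 1 COL1A1 probe set was called lower and 0 higher in each of these comparisons. The direction of COL1A1 is thus not settled for the gene. COL5A2, a minor fibril chain, read 3.68, 3.41 and 3.46 in shCXCR4 I, 3.61, 3.49 and 3.49 in shCXCR4 II, 3.25, 3.32 and 3.30 in Mock, and 3.30, 3.39 and 3.25 in Parental. The clones lay above both controls, but only slightly: the log2 difference from Mock was 0.23 and 0.24 (SE 0.08, limma adjusted p = 0.0416 and 0.0324), and with an array left out the calls were kept in 4 and 7 of 12 fits, with an adjusted p of up to 0.176 and 0.107. Under quantile normalization the COL5A2 calls were lost (0.115 and 0.143), as they were with centred arrays (0.144 and 0.136). The call in shCXCR4 I was kept in 0 of 7 processing alternatives and that in shCXCR4 II in 2 of 7.

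FREM2 had the largest differences of all members. It encodes a large basement membrane protein of the Fraser complex, which joins epithelium to the tissue under it. Its only probe set, 230964_at, read 3.95, 3.59 and 3.63 in shCXCR4 I, 3.37, 3.65 and 3.69 in shCXCR4 II, 5.86, 5.79 and 6.21 in Mock, and 4.23, 4.07 and 4.27 in Parental. Mock stood far above the other groups, and every clone array lay below every Parental array. The log2 difference from Mock was -2.23 in shCXCR4 I and -2.38 in shCXCR4 II (SE 0.12, limma adjusted p = 4.42e-08 and 2.01e-08), which is 4.68-fold and 5.21-fold lower on the RMA scale. The clone and Parental values lay below the median of their arrays, in the range where differences are compressed. Mock exceeded Parental by 1.76 (3.38-fold, limma adjusted p = 6.22e-07). From Parental the clones differed by -0.47 and -0.62 (limma adjusted p = 0.0192 and 0.0036), and the first of these was lost without shCXCR4 I replicate 2 (0.0826) or 3 (0.0774) or Parental replicate 1 (0.062) or 3 (0.0744). The level in Parental thus lay between those of the clones and of Mock, and nearer to the clones. Of 5 measured genes of the Fraser complex and its partners, FRAS1, FREM1 and GRIP1 among them, 0 were called against Mock in either clone. In Mock against Parental 0 were called as well. Over all genes 23.6%, 26.1% and 15% were called in these comparisons, and 5 genes are too few to tell 0 from such shares. With centred arrays 1 was lower in shCXCR4 II than in Mock. Between the clones 1 was higher in shCXCR4 I (4.66% of all genes), and 0 under quantile normalization.

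Of the other collagens, COL6A1, a chain of beaded microfibrillar collagen VI, was the largest by its representing probe set, 213428_s_at. It read 5.56, 5.28 and 5.47 in shCXCR4 I, 5.15, 5.39 and 5.22 in shCXCR4 II, 6.58, 6.22 and 6.24 in Mock, and 5.94, 5.84 and 6.01 in Parental. The clones lay below Parental and Parental below Mock, with no overlap. The log2 difference from Mock was -0.91 and -1.09 (SE 0.11, limma adjusted p = 3.76e-05 and 8.45e-06), from Parental -0.49 and -0.67 (0.00502 and 0.00059), and for Mock minus Parental 0.42 (0.0158, lost without Mock replicate 1 at 0.0555 or Parental replicate 2 at 0.0662). This is 1 of 8 COL6A1 probe sets, and they disagree. In shCXCR4 I against Mock the others lay between -0.18 and 0.29. Of these, 212937_s_at was called higher, by 0.29 in shCXCR4 I and 0.30 in shCXCR4 II, and 216904_at was called lower in shCXCR4 II (-0.38, limma adjusted p = 0.0231 over all single-symbol probe sets). The mean of all 8 gave -0.08 and -0.07 against Mock. The COL6A1 difference is that of a probe set and not settled for the gene. COL6A2 and COL6A3, which encode the partner chains of collagen VI, were not called in any comparison.

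COL4A1 and COL4A2 encode the main chains of the basement membrane network and share a promoter region from which they are read in opposite directions. COL4A1 averaged 10.70 ± 0.03 in shCXCR4 I, 10.64 ± 0.09 in shCXCR4 II, 10.63 ± 0.09 in Mock and 10.89 ± 0.07 in Parental. COL4A2 averaged 10.88 ± 0.05, 10.71 ± 0.06, 11.00 ± 0.08 and 11.13 ± 0.05 in the same groups (SD, n = 3 each). COL4A2 was lower in both clones than in Parental, by 0.25 and 0.42 on the log2 scale (limma adjusted p = 0.0144 and 0.000423), and lower in shCXCR4 II than in Mock by 0.29 (0.00482). The call of shCXCR4 I against Parental was lost without shCXCR4 I replicate 3 (0.0681) or Parental replicate 3 (0.0663). COL4A1 was lower than Parental in shCXCR4 II (-0.25, 0.0223) and in Mock (-0.26, 0.0186), calls that were lost in 4 and 3 fits with an array left out (up to 0.0995 and 0.0858); that of Mock was also lost with centred arrays (0.0604). COL12A1, a collagen on the surface of fibrils, was higher in shCXCR4 I than in Mock (0.27, 0.0228), which was lost without shCXCR4 I replicate 2 (0.103) or Mock replicate 3 (0.0931), under quantile normalization (0.0851) and with centred arrays (0.0968). Without _x_at and _s_at probe sets the sign of COL12A1 turned to -0.15 (0.423).

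Elastic fibre genes changed in both directions. FBN1 encodes fibrillin-1, the scaffold of microfibrils. On probe set 202766_s_at it read 10.23, 10.14 and 10.17 in shCXCR4 I, 10.10, 9.91 and 10.07 in shCXCR4 II, 9.16, 8.94 and 9.30 in Mock, and 9.77, 9.90 and 9.87 in Parental. The order of groups was shCXCR4 I, shCXCR4 II, Parental and Mock, with no overlap of arrays. Against Mock the log2 difference was 1.04 and 0.89 (SE 0.09, limma adjusted p = 1.98e-06 and 8.51e-06), or 2.06-fold and 1.86-fold, and all 3 FBN1 probe sets gave the same direction. Mock was lower than Parental by 0.71 (limma adjusted p = 8.79e-05). Against Parental the clones differed by 0.33 and 0.18 (0.0166 and 0.175), and the first was lost without shCXCR4 I replicate 1 (0.0648) or Parental replicate 1 (0.0702). Without probe sets of the _x_at and _s_at type, Mock minus Parental was -0.40 and not called (0.102).

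The microfibril-associated proteins MFAP2 and MFAP5 were the members called between the clones. MFAP2, which binds fibrillin and tropoelastin, read 6.52, 6.61 and 6.58 in shCXCR4 I, 7.34, 7.22 and 7.23 in shCXCR4 II, 6.23, 6.37 and 6.30 in Mock, and 6.92, 6.87 and 6.97 in Parental. No groups overlapped, and the order was shCXCR4 II, Parental, shCXCR4 I and Mock. It was higher than Mock by 0.27 in shCXCR4 I and by 0.96 in shCXCR4 II (SE 0.06, limma adjusted p = 0.00663 and 1.71e-07). From Parental it differed by -0.35, 0.34 and -0.62 in shCXCR4 I, shCXCR4 II and Mock (0.00145, 0.00175 and 1.62e-05). MFAP5, its relative on microfibrils, read 9.67, 9.74 and 9.80 in shCXCR4 I, 9.13, 9.06 and 9.18 in shCXCR4 II, 9.67, 9.80 and 9.64 in Mock, and 10.17, 10.07 and 10.10 in Parental. It was highest in Parental and lowest in shCXCR4 II, while shCXCR4 I and Mock overlapped. The log2 difference from Parental was -0.38, -0.99 and -0.41 in shCXCR4 I, shCXCR4 II and Mock (SE 0.07, limma adjusted p = 0.00115, 2.59e-07 and 0.000791), and from Mock 0.04 and -0.57 in the clones (0.733 and 4.09e-05). The difference of shCXCR4 I minus shCXCR4 II was -0.69 for MFAP2 and 0.61 for MFAP5 (1.98e-05 and 8.17e-05), so the clones differed in opposite directions. All 11 calls on these 2 genes were kept under every alternative in which they were measured. MFAP2 has 1 probe set, so averaging or leaving out probe sets could not change its values.

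LOXL1 and LOXL2, lysyl oxidases that cross-link elastin and collagen, were lower in both clones than in either control. LOXL1 read 3.44, 3.27 and 3.38 in shCXCR4 I, 3.60, 2.87 and 3.29 in shCXCR4 II, 3.95, 4.16 and 3.92 in Mock, and 4.52, 4.37 and 4.37 in Parental. The clones overlapped each other and lay below Mock, and Mock lay below Parental. The log2 difference of LOXL1 from Mock was -0.65 and -0.76 (SE 0.14, limma adjusted p = 0.00449 and 0.00169), from Parental -1.06 and -1.17 (0.000123 and 6.1e-05), and for Mock minus Parental -0.41 (0.0644). LOXL1 has 1 probe set, and its clone and Mock values lay below the median of their arrays, in the dim range. LOXL2 averaged 5.57 ± 0.16 in shCXCR4 I, 5.62 ± 0.11 in shCXCR4 II, 5.89 ± 0.10 in Mock and 6.17 ± 0.10 in Parental (SD, n = 3 each). It differed from Parental by -0.59 and -0.55 (0.000472 and 0.00093) and from Mock by -0.31 and -0.27 (0.0249 and 0.0433). The calls against Mock were lost in 4 and 6 fits with an array left out (up to 0.108 and 0.135), and with the mean of the LOXL2 probe sets they were lost, as was that of shCXCR4 II against Parental (0.137). LOX, LOXL4, ELN (elastin) and EFEMP1 (fibulin-3) were not called by their representing probe sets, with differences of at most 0.32. Other probe sets of 3 of them were called, all but that of LOXL4 dim. For LOX, 204298_s_at was lower than Mock by 0.63 in shCXCR4 I and 0.53 in shCXCR4 II, and 215446_s_at by 0.26 and 0.49. For LOXL4, 227145_at was higher than Mock by 0.57 and 0.51. For EFEMP1, 201842_s_at was lower than Parental by 0.89 in shCXCR4 I, 0.90 in shCXCR4 II and 0.77 in Mock. FBN2, fibrillin-2, was dim and was higher in shCXCR4 II than in Mock (0.26, 0.0149), lost without shCXCR4 II replicate 1 (0.0574) or Mock replicate 2 (0.0618), or with centred arrays (0.0542).

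Among 8 glycoproteins and proteoglycans, VCAN changed most. It encodes versican, a large chondroitin sulfate proteoglycan that binds hyaluronan. On probe set 204620_s_at it read 9.21, 9.20 and 9.17 in shCXCR4 I, 9.52, 9.28 and 9.36 in shCXCR4 II, 8.25, 8.30 and 8.70 in Mock, and 9.61, 9.73 and 9.70 in Parental. The order was Parental, shCXCR4 II, shCXCR4 I and Mock, with no overlap. Against Mock the log2 difference was 0.78 and 0.97 (SE 0.10, limma adjusted p = 0.000103 and 1.74e-05), and against Parental -0.48 and -0.29 (0.00446 and 0.0656). Mock lay below Parental by 1.27 (2.40-fold, limma adjusted p = 2.19e-06), so VCAN stood nearer to Parental in both clones than in Mock. All 5 VCAN probe sets agreed in direction for both clones minus Mock and for Mock minus Parental.

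TNC, tenascin-C, a glycoprotein of remodelled matrix, read 3.12, 3.04 and 3.00 in shCXCR4 I, 2.87, 2.76 and 2.93 in shCXCR4 II, 3.20, 3.52 and 3.21 in Mock, and 3.41, 3.13 and 3.04 in Parental. It was dim, and shCXCR4 II lay below every other array. Its log2 difference in shCXCR4 II was -0.45 from Mock and -0.34 from Parental (SE 0.10, limma adjusted p = 0.00617 and 0.0361). The second was lost without shCXCR4 II replicate 1 (0.0744) or 2 (0.124) or Parental replicate 1 (0.142) or 2 (0.0619), and the mean of the TNC probe sets gave -0.10 from Mock (0.257). DCN, the small proteoglycan decorin, was higher in shCXCR4 II than in Mock (0.35, 0.0433), a call lost in 7 fits with an array left out (up to 0.172), under quantile normalization (0.0624) and with centred arrays (0.0739). The mean of the DCN probe sets gave 0.16 (0.068), and without _x_at and _s_at probe sets the difference was 0.05 (0.667). FN1 (fibronectin), SPARC, POSTN (periostin), LUM (lumican) and BGN (biglycan) were not called, with differences of at most 0.31. FN1 averaged 5.10 ± 0.03, 5.03 ± 0.31, 4.90 ± 0.05 and 4.79 ± 0.06 in shCXCR4 I, shCXCR4 II, Mock and Parental (SD, n = 3 each).

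**Figure D4:**
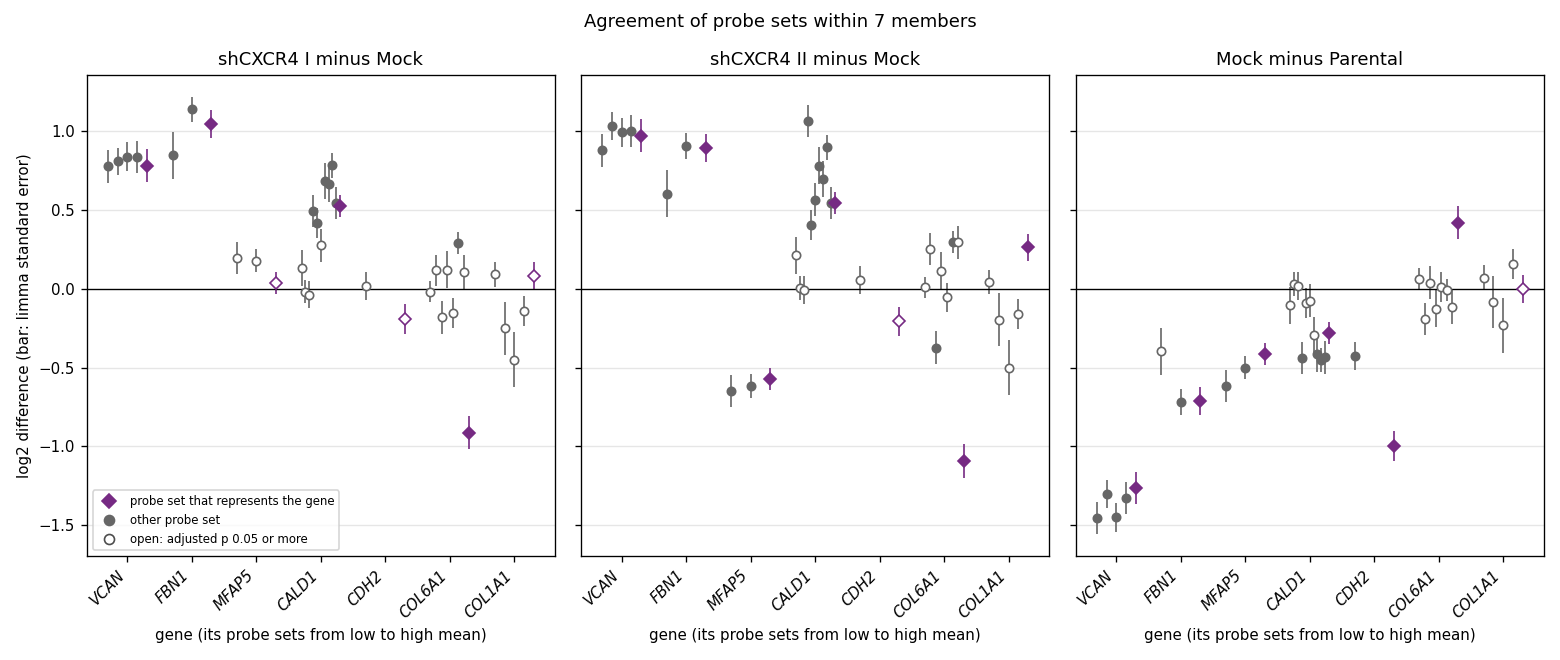
Log2 difference of each probe set of 7 members in shCXCR4 I minus Mock, shCXCR4 II minus Mock and Mock minus Parental; diamonds are the probe set that represents the gene, circles its other probe sets, open symbols an adjusted p of 0.05 or more, and bars limma standard errors. The 5 VCAN and the 3 FBN1 probe sets lie together, while the COL6A1 diamond lies apart from the other COL6A1 probe sets.

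Among genes that make and process collagen, more were called lower than higher against Mock in both clones. Of 21 measured enzymes and chaperones, 1 was higher and 6 lower in shCXCR4 I against Mock, and 3 higher and 6 lower in shCXCR4 II. Over all genes 23.6% and 26.1% were called, with 9.97% higher and 13.6% lower in shCXCR4 I, and 11% and 15.1% in shCXCR4 II. Of the 21, 14 and 12 were not called, and the medians were -0.05 and -0.07. In Mock against Parental 5 were higher and 1 lower, beside 9.78% and 5.23% of all genes. With centred arrays these counts were 8 and 1, and under quantile normalization 4 and 1. Under quantile normalization the counts in shCXCR4 II against Mock were 2 and 3, and with centred arrays 1 and 7. PLOD2, a lysyl hydroxylase that prepares collagen for cross-linking, was lower than Mock by 0.57 in shCXCR4 I and by 0.90 in shCXCR4 II, and Mock exceeded Parental by 0.93 (limma adjusted p = 0.00442, 0.00018 and 0.00017). PCOLCE2, which assists procollagen cleavage, was above Parental by 0.79 in shCXCR4 I, 0.84 in shCXCR4 II and 0.96 in Mock, and past the test in each. Of 23 other collagens, 3 were higher and 1 lower in shCXCR4 I against Mock and 2 and 2 in shCXCR4 II, where quantile normalization and centring both gave 1 and 3. COL4A4, a basement membrane collagen chain, was above Mock by 1.20 and 0.74 and was lower in Mock than in Parental by 1.27, each past the test. Of 33 other matrix glycoproteins and proteoglycans, 4 were higher and 3 lower in shCXCR4 I against Mock, and 4 and 4 in shCXCR4 II. FSTL1, a secreted glycoprotein related to SPARC, was lower than Mock by 0.62 and 1.32 and lower than Parental by 1.13 and 1.83, with a difference of 0.70 between the clones, each past the test.

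For FREM2, FBN1, VCAN and MFAP2, 4 of the members called in both clones against Mock, the 250 bases before the RefSeq transcription start are shown (GRCh38.p14, 5′ to 3′ on the gene's strand). Capitals mark matches on either strand to CAGGTG, the E-box bound by ZEB and SNAI proteins. TATAAA and GGGCGG were searched as well, and their matches are left in lower case. FREM2 lies at chr13:38686827-38687076 (+), FBN1 at chr15:48644971-48645220 (-), VCAN at chr5:83471494-83471743 (+) and the first MFAP2 start at chr1:16981584-16981833 (-).
FREM2: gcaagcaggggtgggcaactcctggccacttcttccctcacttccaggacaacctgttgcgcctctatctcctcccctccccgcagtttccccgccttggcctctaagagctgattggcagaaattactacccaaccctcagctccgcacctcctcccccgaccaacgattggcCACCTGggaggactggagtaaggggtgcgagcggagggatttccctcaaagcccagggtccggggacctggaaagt
FBN1: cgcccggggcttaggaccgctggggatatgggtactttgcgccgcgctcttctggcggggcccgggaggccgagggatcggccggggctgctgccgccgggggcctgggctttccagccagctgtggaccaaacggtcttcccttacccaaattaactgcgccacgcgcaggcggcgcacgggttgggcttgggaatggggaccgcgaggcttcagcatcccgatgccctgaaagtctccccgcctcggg
VCAN: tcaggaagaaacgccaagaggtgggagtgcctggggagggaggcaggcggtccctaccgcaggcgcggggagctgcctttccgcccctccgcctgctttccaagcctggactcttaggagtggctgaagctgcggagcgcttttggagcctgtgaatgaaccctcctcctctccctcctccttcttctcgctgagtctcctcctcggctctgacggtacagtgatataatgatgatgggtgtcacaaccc
MFAP2: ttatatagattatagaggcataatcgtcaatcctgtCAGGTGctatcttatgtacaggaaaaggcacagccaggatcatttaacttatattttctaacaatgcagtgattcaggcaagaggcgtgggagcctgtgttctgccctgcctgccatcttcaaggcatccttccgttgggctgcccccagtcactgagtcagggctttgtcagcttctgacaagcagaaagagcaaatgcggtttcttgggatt
FREM2 holds the E-box letters at position -76 from the start and MFAP2 at -214 from its first start, VCAN holds CCGCCC at -170, and FBN1 holds none of the motifs searched. The window of the second MFAP2 start, not shown, holds 0 matches to the E-box and 2 to GGGCGG. The table gave 56 start windows for 30 of the 47 members. CAGGTG or CACCTG was present in 8 of the 56 (14.3%), beside 17.5% of 35116 promoters. TATAAA or TTTATA was present in 14.3%, beside 10.7%, and GGGCGG or CCGCCC in 51.8%, beside 42.6%. A match of letters is a description of the sequence and does not show binding.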

How the data were processed

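RNA of IGROV-1 cells was measured on 12 arrays, with 6 µg total RNA per array. The authors deposited log2 values per probe set, made with RMA in R 2.6.0 per the submitters' processing notes. RMA summarises probes and compresses differences of dim genes. The chip definition is not given in the sources used here, nor is a filter. Of 54675 probe sets, 41097 carried 1 gene symbol, 1801 several and 11777 none in the platform annotation; 41043 matched by Entrez number. No further normalization was applied.

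The test was limma 3.58.1 in R 4.3.3 (group means over 12 arrays; degrees of freedom 8 residual and 5.19 prior; Benjamini-Hochberg over 19775 genes, adjusted p under 0.05). Errors of differences are limma's standard errors. The code was tested on simulated data. The members and gene lists were chosen with earlier results of these data known. Members at least 2-fold different in any comparison, and the 2 with the largest difference in each role group, are given by array; MFAP2 and MFAP5 were added after their values were seen. Of each list of other genes, up to 3 with the largest called difference may be named. Same-numbered replicates did not deviate together: over 18 pairs the correlations lay between -0.11 and 0.15. Alternatives were averaging each gene's probe sets, no _x_at or _s_at probe sets, quantile normalization, centring, a trended and robust variance, only the groups compared, genes with a mean log2 of at least 6, a replicate block, and each array left out. Figures used Python 3.11.15 and matplotlib 3.10.9. Promoter sequences are RefSeq's (GRCh38.p14).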

Additional observations from a re-analysis of the deposited data

Results flagged for a closer look

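MFAP2 and MFAP5 are listed because the knockdown clones, set against the same Mock arrays, differed from each other by limma's test of the difference between clones. For MFAP2 shCXCR4 I minus shCXCR4 II was -0.69 on the log2 scale (limma adjusted p = 1.98e-05), with differences from Mock of 0.27 and 0.96. For MFAP5 it was 0.61 (limma adjusted p = 8.17e-05), with differences from Mock of 0.04 and -0.57. In both genes no array of shCXCR4 I overlapped an array of shCXCR4 II, but the genes were picked by this same test, so that is no further support. The clone arrays did not overlap in other members either, ZEB1 and VCAN among them. Between the clones 4.26% of members were called, beside 7.15% of all genes. Groups of 3 arrays are too small for a test of single outlying arrays.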

How the results depend on the processing

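Counts of called members depended mostly on which probe sets and genes were kept. Without _x_at and _s_at probe sets 38 members could be tested, and 7, 7 and 6 were called in shCXCR4 I against Mock, shCXCR4 I against Parental and Mock against Parental. With all 47 members the counts in these comparisons were 14, 12 and 11. Among the 12 members with a mean log2 of at least 6, 7 and 8 were called in the clones against Mock and 9 in shCXCR4 II against Parental. Over all 47 these counts were 14, 16 and 15, so the count fell and the called share of the members tested did not. The share of all genes called under these settings is not given here. A trended and robust variance called 5 members between the clones. At least 2-fold, shCXCR4 I against Mock had 1 member without _x_at and _s_at probe sets, with centred arrays or at a mean of 6. shCXCR4 II against Mock had 1 with the mean of probe sets, 1 without _x_at and _s_at probe sets, 4 under quantile normalization and 0 at a mean of 6. shCXCR4 I against Parental had 1 with the mean of probe sets and 0 at a mean of 6, shCXCR4 II against Parental had 0 and Mock against Parental 1 at a mean of 6. With each array left out, 10 to 16 and 11 to 21 members were called in shCXCR4 I and II against Mock, 9 to 13 and 10 to 15 against Parental, 8 to 15 in Mock against Parental and 2 to 3 between the clones. The 2-fold counts were 1 to 2, 1 to 3, 2 to 2, 1 to 3, 2 to 3 and 0 to 0; the count of 1 came without Mock replicate 2 in shCXCR4 I against Mock, without Mock replicate 1 in shCXCR4 II against Mock, and without shCXCR4 II replicate 2 in shCXCR4 II against Parental. With a replicate block, 13, 16, 12, 14, 13 and 2 members were called in these 6 comparisons. Of the same-numbered pairs, 2 of 18 correlated above 0.1, and in 8 of the 18 the same-numbered sample correlated best. Signs turned for COL1A1 with the mean of probe sets (-0.11 and -0.13 in shCXCR4 II against Mock and Parental), and for COL6A1 without _x_at and _s_at probe sets: 0.11 and 0.30 in the clones against Mock, 0.18 in shCXCR4 II against Parental and -0.11 in Mock against Parental. Under that setting TPM1 turned to 0.16 and COL12A1 to -0.15 in shCXCR4 I against Mock, and COL12A1 to -0.36 in shCXCR4 II against Mock and -0.53 in shCXCR4 II against Parental, where the mean of probe sets gave -0.20. Over all genes, in counts added after the data were seen, fitting only the groups compared called 3027 genes in shCXCR4 II against Mock, where all groups gave 5168, and 735 between the clones, where all groups gave 1413. Leaving out Parental replicate 2 gave 2215 genes in shCXCR4 II against Parental, with 3353 otherwise. Between the clones, counts were 770, 789 and 914 without shCXCR4 I replicates 1, 2 and 3, 879 without shCXCR4 II replicate 2 and 865 without _x_at and _s_at probe sets. Some of these settings use fewer genes or arrays, and why the counts moved was not tested. Dim genes, with signal near background, limit what the arrays can show for 17 members below the array median. A value above the median does not by itself show expression, and only 12 of the 47 members had a mean log2 of at least 6.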
